A study of Mus musculus with 36 samples.

Results

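The step from 8 to 10 weeks of age was described in hindlimb muscle of mdx and control mice. It was measured on the 4 arrays, of 36 in the series, whose labels pair these ages. Of these 4 arrays, 2 were of mdx and 2 of control muscle, and every mouse was a different individual, lettered A or B within an age and strain. The mdx mouse carries a premature stop codon in the dystrophin gene. Its stock was C57Bl/10ScSn mdx/J crossed with C57Bl/6NCrl and CBA/JCrl, and the control strain was C57Bl/10ScSnOlaHsd, so that the groups differed in strain background as well as in dystrophin. No mouse was treated. Total RNA was amplified, labelled with Cy3 or Cy5 and hybridised to oligonucleotides of 65 bases printed in duplicate.

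Each array compared a 10-week with an 8-week mouse of one strain. Values are thus changes with age inside a strain and not the level in mdx against control muscle, nor the level of a marker gene in the tissue. All values below are natural log ratios, 10 minus 8 weeks, averaged over duplicate spots after the dye effect of each strain was subtracted. A value of 0.5 equals a 1.65-fold change. Each probe was also fitted with limma over all 36 arrays, and its p was adjusted over 6754 probes (Benjamini-Hochberg). A fitted value equals the mean of the 2 arrays of a strain, and n is 2 animals per age and strain throughout.

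Muscle that lacks dystrophin goes through necrosis and inflammation, after which satellite cells, the muscle stem cells, divide and fuse into new fibres. Macrophages clear the debris, fibroblasts lay down collagen, and new fibres switch from embryonic to adult contractile proteins. In healthy muscle of this age the fibres grow and settle into fast and slow types. The arrays from 8 to 10 weeks fall within the regeneration period of mdx muscle.

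No probe passed the adjusted threshold of 0.05 in any of the 4 comparisons made for this step. These were the change in mdx muscle, the change in control muscle, their mean and their difference, and percent called was 0 in each direction of each. The lowest adjusted p of limma was 0.283 in mdx, 0.37 in control, 0.782 for the mean of both strains and 0.275 for the difference. At an unadjusted p under 0.05, 508 probes (7.52%) were lower and 179 (2.65%) higher at 10 weeks in mdx muscle, 10.2% in all. In control muscle 63 (0.933%) were lower and 160 (2.37%) higher, 3.3% in all. For the mean of both strains there were 207 (3.06%) lower and 130 (1.92%) higher, 4.99% in all. For the difference 436 (6.46%) were lower and 95 (1.41%) higher in mdx, 7.86% in all. The median standard error was 0.185 within a strain and 0.262 for the difference. The counts of passing probes depended on which letter was included. A fit without 1 letter of a strain dropped its 8-week and 10-week mice and every array they stood on. That left 1 array of the step in that strain. Some of these fits passed probes, but no replicate was left in that strain. Their counts are listed only with the processing choices at the end and are not taken as results. The values and folds below are those of genes that did not pass in the fit of all arrays.

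The arrays of a strain had little in common. Over all probes the values of the 2 mdx arrays correlated with r = 0.133 and those of the 2 control arrays with r = 0.0478, across genes that are not independent replicates. Between strains r lay between -0.108 and 0.0312. The spread over probes (SD) was 0.396 on mdx array A, 0.277 on mdx array B, 0.247 on control array A and 0.25 on control array B, against a median of 0.305 over 14 other mdx arrays, those joining 20 to 1 weeks left out. Duplicate spots correlated with r = 0.746, 0.532, 0.83 and 0.616 on these arrays in the same order. The medians over all probes were -0.02, -0.06, 0.06 and -0.02.

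A value of at least 0.5 in the same direction on all 4 arrays was reached by 0 probes, and 0 reached 0.4. At 0.3, 1 probe (0.0148%) was higher and 4 (0.0592%) were lower at 10 weeks on every array. The higher one was Ccn1, a secreted matrix protein of the immediate early response. Its values were 0.67 and 0.34 on mdx arrays A and B and 0.41 and 1.02 on control arrays A and B. The mean of both strains was 0.61 ± 0.18 (SE, 1.84-fold, unadjusted p = 0.00214, limma adjusted p = 0.996). The strains overlapped, with the highest and the second lowest value both in control muscle.

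Of the 4 lower genes, 2 belong to retinol handling. Rbp7, a retinoid binding protein of the cell, was at -1.06 and -1.0 in mdx muscle and -0.34 and -0.60 in control muscle, with a mean of -0.75 ± 0.21 over both strains. Lrat, which esterifies retinol for storage, was at -0.34 and -0.31 in mdx and -0.53 and -0.87 in control muscle, with a mean of -0.51 ± 0.16. Rbp7 was lower on both mdx arrays than on either control array, while Lrat was the other way round. The difference between strains was -0.56 ± 0.43 for Rbp7 and 0.38 ± 0.31 for Lrat, and neither had an unadjusted p under 0.05. The others were Aloxe3, an epidermal lipoxygenase (-0.44, -0.30, -0.77 and -0.40), and Serpinf1, the secreted factor PEDF (-0.34, -0.32, -0.30 and -0.31). Serpinf1 was the most even of the 4, its arrays lying within a narrow range in both strains.

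**Figure D1:**
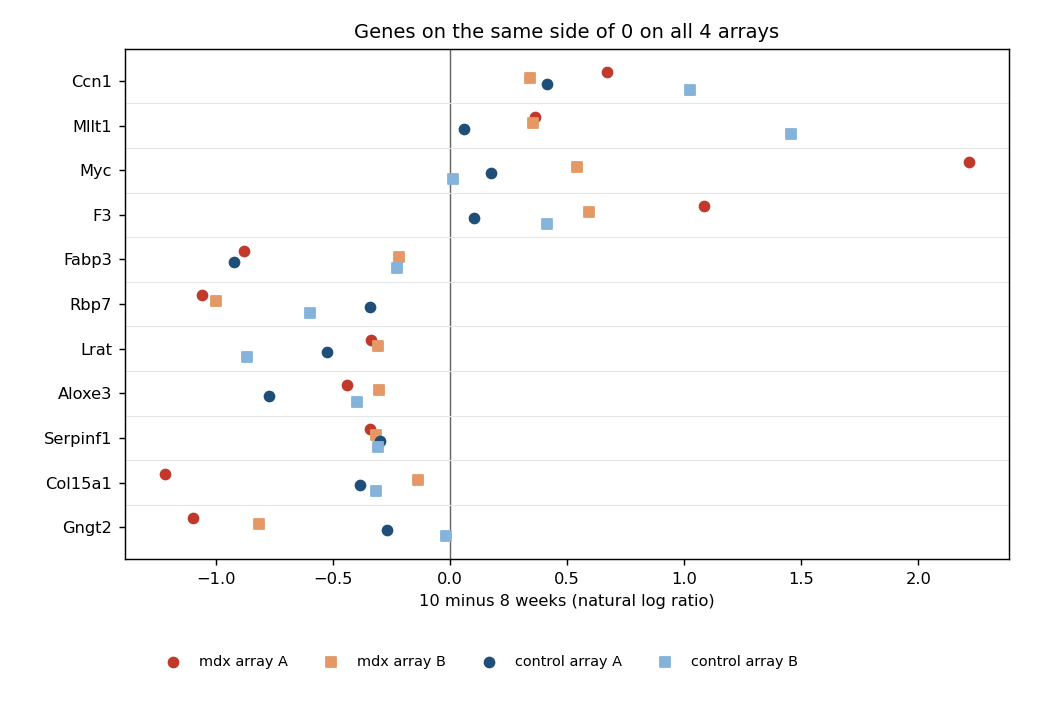
Genes on the same side of 0 on all 4 arrays. The horizontal axis is the natural log ratio of 10 over 8 weeks, with mdx array A in red, mdx array B in orange, control array A in dark blue and control array B in light blue. Ccn1 lies right of 0.3 and Rbp7, Lrat, Aloxe3 and Serpinf1 lie left of -0.3 on every array.

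Below that size, 336 probes (4.97%) were above 0 and 467 (6.91%) below 0 on all 4 arrays. By the smallest p of the mean over both strains, the lower ones included Gngt2, a G protein gamma subunit (-1.10 and -0.82 in mdx, -0.27 and -0.02 in control, mean -0.55 ± 0.14). Fabp3, the fatty acid binding protein of heart and oxidative muscle, had nearly equal values in the 2 strains. They were -0.88 and -0.22 in mdx and -0.92 and -0.22 in control muscle, with a mean of -0.56 ± 0.15 and a difference of 0.02 ± 0.30. Col15a1, a basement membrane collagen, was at -1.22, -0.14, -0.38 and -0.32. Among the higher ones were Mllt1, a factor of transcription elongation (0.36, 0.35, 0.06 and 1.46), and F3, tissue factor (1.08, 0.59, 0.10 and 0.41). Within a strain, Col15a1 in mdx, Mllt1 in control and Fabp3 in both strains had values farther apart than the size of the mean. Mllt1 rested on control array B. The letters do not pair mice, and with single replicates left out the difference of Fabp3 ranged from -0.37 to 0.42.

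More probes were lower than higher in mdx muscle. There were 2437 (36.1%) below 0 on both mdx arrays and 1470 (21.8%) above 0 on both. In control muscle 1520 (22.5%) were below and 1865 (27.6%) above 0 on both arrays. At a size of 0.5 on both arrays the order in mdx turned, with 53 probes (0.785%) higher and 18 (0.267%) lower, and in control muscle there were 8 (0.118%) of each. The mdx arrays lay under both control arrays for 1846 probes (27.3%) and over both for 987 (14.6%).

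Markers of macrophages and other myeloid cells, which enter necrotic muscle, were lower on one mdx array only. The median of 34 probes was -0.85 on mdx array A, 0.06 on mdx array B, 0.14 on control array A and -0.01 on control array B. On mdx array A 30 of 34 lay below 0, and on both mdx arrays 11 lay below 0 and 1 above, both smaller shares than the 36.1% and 21.8% of all probes. The number passing was 0, and 11 had an unadjusted p under 0.05, all lower in mdx, where the same held for 7.52% of all probes. Aif1, a calcium binding protein of macrophages, was at -1.54 and -0.06 in mdx and -0.03 and -0.07 in control muscle. C1qc, a chain of complement C1q made by macrophages, was at -1.61 and 0.04 in mdx muscle and at 0.49 and 0.08 in control muscle. Lgals3, galectin 3, had the lowest value of the list, -2.52 on mdx array A, and 0.49 on mdx array B. Cyba, a subunit of the NADPH oxidase of phagocytes, differed from these in being lower on both mdx arrays (-0.53 and -1.06, against -0.17 and 0.12 in control muscle). In whole muscle, fewer cells of a type and less RNA per cell cannot be told apart.

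The same animals stood on the arrays of neighbouring ages. From 6 to 8 weeks the median of the myeloid list was 0.44 for the mdx animals A and -0.66 for the mdx animals B, and from 10 to 12 weeks it was -0.08 and 0.08. The 8-week mdx mouse A thus lay above both the 6-week and the 10-week mouse compared with it, and the 8-week mouse B lay below its 6-week mouse and close to its 10-week mouse. In control muscle all medians of these 3 steps lay between -0.16 and 0.14. Whether the steps differ was not tested, since their arrays share mice.

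**Figure D2:**
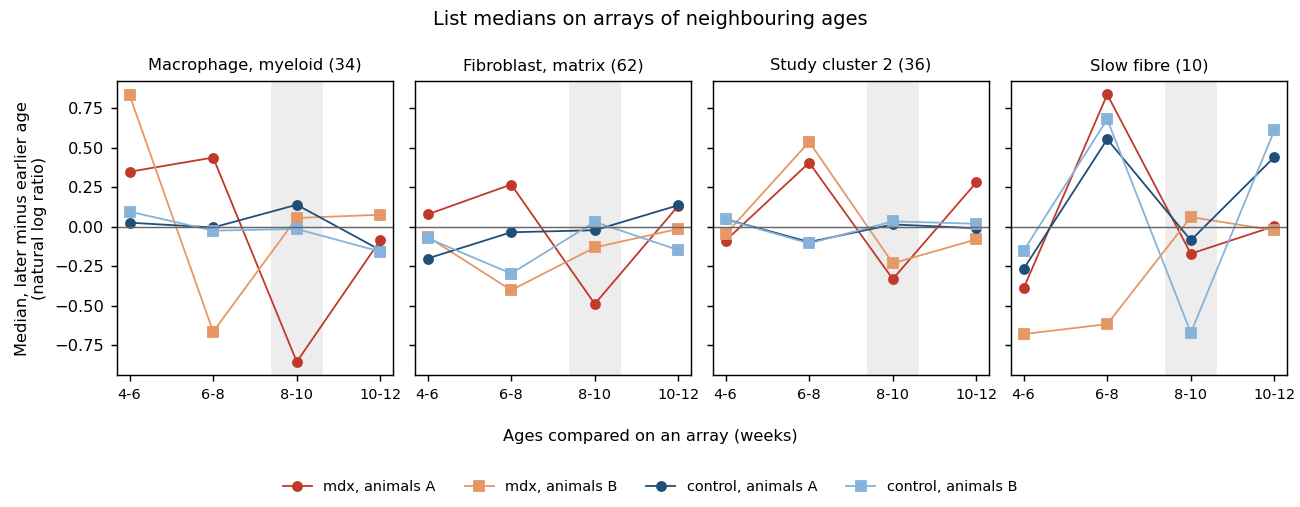
Median of 4 gene lists on each array comparing neighbouring ages, with the ages in weeks on the horizontal axis and the natural log ratio of the later over the earlier age on the vertical axis. Each line follows the arrays of one letter and strain, and the shaded band marks 8 to 10 weeks, where the myeloid median was -0.85 for mdx A and 0.06 for mdx B.

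Of 40 probes of chemokines and cytokines, 25 were below 0 on both mdx arrays and 3 above, against 8 below and 11 above on both control arrays. Of all probes, 36.1% were below and 21.8% above 0 on both mdx arrays. On both control arrays the shares of all probes were 22.5% and 27.6%, and the control counts of this list were close to them. The medians of the list were -0.21 and -0.18 in mdx and 0.11 and -0.02 in control muscle. The number with an unadjusted p under 0.05 was 8 lower and 0 higher in mdx, where all probes gave 7.52% and 2.65%. Cxcl2, which attracts neutrophils, was at -2.45 and -0.34 in mdx and -0.46 and 1.42 in control muscle. The fitted mdx value was -1.39 ± 0.37 (4.03-fold lower, adjusted p = 0.283), and the wide control values enclosed mdx array B. Ccl5, a T cell attractant, was at -1.21 and -0.40 in mdx and 0.12 and -0.29 in control muscle, without overlap. Ccl8 (-1.58 and -0.28) and Cxcl14 (-1.19 and -0.18) had the same order of the 2 mdx arrays. S100a8 and S100a9, the paired calcium binding proteins of neutrophils, were chosen after their values were seen. S100a8 was at -1.07 and -0.70 and S100a9 at -1.44 and -1.27 in mdx muscle, whereas control muscle lay between -0.02 and 0.38 for both. Their standard errors were wide, 0.41 and 0.61.

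Of 19 probes of the interferon response and antigen presentation, 9 were below 0 on both mdx arrays, against 36.1% of all probes. The medians were -0.45 and 0.00 in mdx and 0.22 and -0.03 in control muscle. Isg15, a ubiquitin-like protein induced by interferon, was at -1.48 and -0.32 in mdx and 0.03 and -0.13 in control muscle. Cd74, the invariant chain of MHC class II, was at -1.60 and -0.15, and Irf8, a myeloid transcription factor, at -1.25 and -0.34 in mdx muscle. On mdx array A these genes lay lower than on mdx array B, as did the myeloid markers. Of 16 lymphocyte probes, 4 were below 0 on both mdx arrays, a share under that of all probes, and the medians were -0.14 and -0.14 in mdx and 0.03 and 0.06 in control muscle.

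Genes of fibroblasts and the extracellular matrix were lower on both mdx arrays for 35 of 62 probes and higher on both for 3. All probes gave 36.1% and 21.8%. The medians were -0.49 and -0.13 in mdx and -0.02 and 0.03 in control muscle. At an unadjusted p under 0.05, 24 of 62 were lower and 0 higher in mdx, where all probes gave 7.52% and 2.65%. The number passing was 0. Pcolce, which promotes the trimming of procollagen, was at -0.98 and -0.41 in mdx and 0.16 and just under 0 in control muscle, with a fitted mdx value of -0.69 ± 0.18. Col18a1, a basement membrane collagen, was at -1.07 and -0.31 in mdx and 0.20 and 0.01 in control muscle. Col6a1 (-1.14 and -0.19) and Col5a1 (-0.85 and -0.41) were also lower on both mdx arrays. The strains did not overlap for Pcolce, Col18a1 and Col5a1, whereas control array B of Col6a1, at -0.28, lay below mdx array B. Col1a1, the main fibrillar collagen, was at -1.79 on mdx array A and 0.71 on mdx array B. The myeloid median moved in the same order as this list on the 2 mdx arrays, and its part in these values was not tested.

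**Figure D3:**
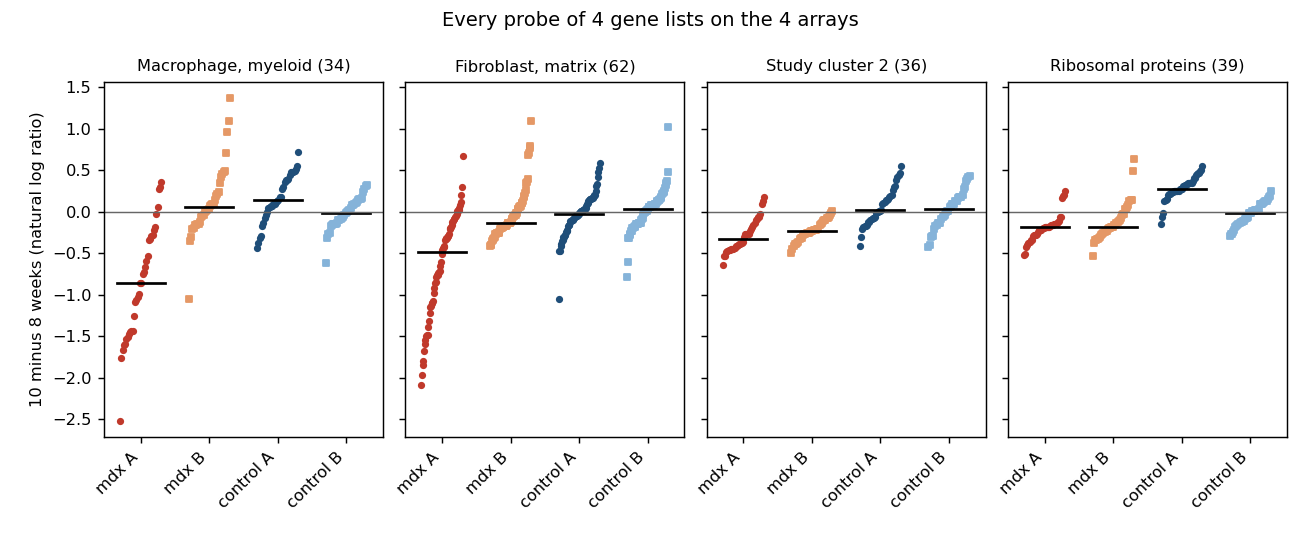
Every probe of 4 gene lists on the 4 arrays, sorted within an array, with the natural log ratio of 10 over 8 weeks on the vertical axis and a black bar at the median. The myeloid and matrix lists are spread widely on mdx array A (medians -0.85 and -0.49), while the medians of the study's cluster 2 were -0.33 and -0.23 and those of the ribosomal proteins -0.19 and -0.18 on the mdx arrays.

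The study sorted genes with possible functions in regeneration into clusters by their course over age in these same mice, and 151 of those probes were found here. These lists were chosen on these samples, so their direction is not independent evidence. In cluster 1, 26 of 28 probes were below 0 on both mdx arrays, and in cluster 2 it was 33 of 36, where 36.1% of all probes were. The medians were -0.25 and -0.19 in mdx and 0.03 and 0.03 in control muscle for cluster 1. For cluster 2 they were -0.33 and -0.23 in mdx and 0.01 and 0.03 in control muscle. From 6 to 8 weeks both had been above 0, with 0.29 and 0.24 for cluster 1 and 0.41 and 0.54 for cluster 2. Those arrays held the same 8-week mice. Of all 151 probes, 109 were below 0 on both mdx arrays, 35 had an unadjusted p under 0.05 (all lower in mdx, against 7.52% of all probes), and 0 passed.

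In cluster 2 Numb, which opposes Notch in dividing satellite cells, was at -0.45 and -0.39 in mdx and -0.09 and 0.10 in control muscle. The mdx value of Numb was -0.42 ± 0.13 (1.52-fold lower, adjusted p = 0.303). The study detected no expression of Numb in control muscle on its arrays, so the control values may be those of spots near background. Ptgir, the prostacyclin receptor, was at -0.48 and -0.41 in mdx and -0.17 and 0.43 in control muscle. In cluster 1 Mdk, the growth factor midkine, was at -0.58 and -0.22, and Fgfr1, a receptor of fibroblast growth factors, at -0.43 and -0.34 in mdx muscle. For each of these 4 genes both mdx arrays lay below both control arrays, and control array B of Fgfr1, at -0.29, came close to mdx array B. The same held for 18 of 28 probes of cluster 1, 26 of 36 of cluster 2 and 27.3% of all probes. The 4 genes were picked from these clusters, so their separation is not a separate result.

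Ncam1, a cell adhesion molecule of satellite cells and new fibres, had 3 probes. The probe with accession D13289 was at -1.35 and -0.37 in mdx and 0.19 and -0.05 in control muscle (-0.86 ± 0.20). The probe X15052 was at -1.02 and 0.03 in mdx and the probe X59306 at -0.40 and -0.36. All 3 were below 0 on mdx array A and did not match in size.

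Among 26 probes of regenerating and embryonic muscle, 10 were below 0 on both mdx arrays and 4 above, close to the 36.1% of all probes for those below, with medians of -0.43 and 0.01 in mdx and 0.20 and -0.06 in control muscle. Tnnt2, the embryonic and cardiac troponin T, was at -1.23 and -0.14 in mdx muscle and at 0.08 and -0.35 in control muscle. Nes, the filament protein nestin of young fibres, was at -1.03 and -0.05 in mdx muscle. Myog, the transcription factor myogenin of fusing myoblasts, was at -0.56 and -0.41 in mdx and -0.22 and -0.03 in control muscle. Myod1 lay on both sides of 0, at -0.36 and 0.20. Csrp3, a Z-disc protein that is also a member, was higher on both mdx arrays, at 1.26 and 0.60. Of 19 satellite cell probes, 14 were below 0 on both mdx arrays and 1 above, against 36.1% and 21.8% of all probes, with medians of -0.26 and -0.12 in mdx and 0.06 and 0.04 in control muscle.

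Of 21 probes of the Notch-Delta pathway named by the study, 14 were below 0 on both mdx arrays and 3 above, against 36.1% and 21.8% of all probes. The study drew its pathways in part from genes differentially expressed in these same mice, so their direction here is not independent evidence. Notch3 was at -0.43 and -0.43 in mdx and -0.40 and just under 0 in control muscle. Notch1 was at -0.16 and -0.02 in mdx and 0.51 and 0.08 in control muscle, and Notch2 at -0.30 and -0.12 in mdx. Dvl1, a dishevelled protein of Wnt signalling that also meets Notch, was at -0.49 and -0.40 in mdx and 0.41 and 0.16 in control muscle, a difference of -0.73 ± 0.20. The ligand Dll3 was at -0.20 and -0.30 in mdx and 0.27 and 0.14 in control muscle. There the study detected no expression of Dll3, so these control values may also be those of spots near background. The target gene Hes1 lay above 0 in mdx muscle, at 0.40 and 0.27. In the study's Bmp15 pathway 7 of 16 probes, and in its neuregulin 3 pathway 5 of 14, were below 0 on both mdx arrays, the latter a share close to the 36.1% of all probes. Bmp15 itself was at -0.20 and -0.07 and Nrg3 at -0.18 and -0.47 in mdx muscle.

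Of 45 cell cycle probes, 15 were below 0 on both mdx arrays and 7 above, with medians of -0.10 and -0.08. These shares were under the 36.1% and 21.8% of all probes. Ccnd1, the cyclin D1 of entry into the cycle, was at -0.29 and -0.69 in mdx and -0.03 and 0.12 in control muscle (-0.49 ± 0.13 in mdx). Aurka, a mitotic kinase, was lower in mdx (-0.46 and -0.30) and higher in control muscle (0.73 and 0.23), a difference of -0.86 ± 0.25. Mki67, a marker of cycling cells, was at -0.21 and -0.20 in mdx muscle.

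**Figure D4:**
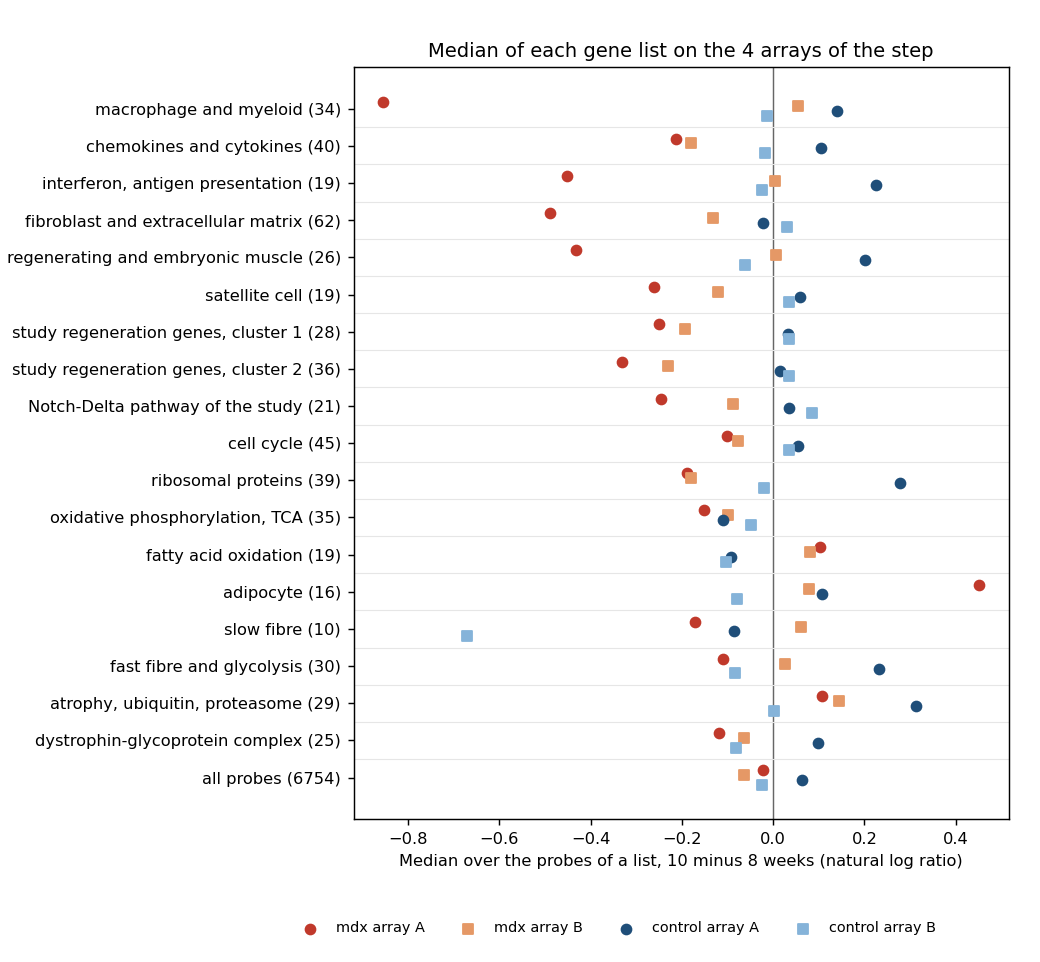
Medians of 18 gene lists and of all probes on the 4 arrays, with the number of probes in brackets and the natural log ratio of 10 over 8 weeks on the horizontal axis. Red and orange marks are the mdx arrays and dark and light blue marks the control arrays. The myeloid, interferon and matrix lists lie farther left on mdx array A than on the other arrays, the study's clusters 1 and 2 on both mdx arrays, and the slow-fibre list on control array B.

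Components of the dystrophin-glycoprotein complex, which ties the cytoskeleton of the fibre to the matrix, were represented by 25 probes. Of these, 9 were below 0 and 5 above on both mdx arrays, shares close to the 36.1% and 21.8% of all probes, with medians of -0.12 and -0.06 in mdx and 0.10 and -0.08 in control muscle. The 2 probes of Dmd were at -0.42 and -0.06, and at -0.27 and -0.31, in mdx muscle. A change with age is no check of the strain labels. Dtna, alpha-dystrobrevin, was at -0.44 and -0.49 in mdx and -0.04 and -0.08 in control muscle, without overlap (-0.47 ± 0.19 in mdx). From 6 to 8 weeks its mdx values had been 0.73 and 0.78, on arrays with the same 8-week mice. Utrn, the dystrophin homologue utrophin, was at -0.17 and -0.37 in mdx and 0.39 and -0.05 in control muscle. Lama2, a laminin chain that the complex binds, was at -0.91 and -0.18 in mdx muscle.

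For 3 sarcomere genes the strains lay on opposite sides of 0. Csrp3, a protein of the Z-disc of slow and stressed fibres, was at 1.26 and 0.60 on the mdx arrays and at -1.36 and -1.18 on the control arrays. Myoz2, which binds calcineurin at the Z-disc of slow fibres, was at 0.57 and 1.03 in mdx and -0.97 and -1.09 in control muscle. Ankrd2, a stretch-responsive protein of slow fibres, was at 1.04 and 0.50 in mdx and -0.81 and -0.53 in control muscle. Every mdx value of these genes lay above 0 and every control value below 0. The genes were picked by the smallest p of the difference among probes with both mdx arrays over both control arrays. That held for 14.6% of all probes, and the separation of the strains follows in part from this choice. The difference was 2.20 ± 0.64 for Csrp3, 1.83 ± 0.42 for Myoz2 and 1.44 ± 0.41 for Ankrd2, a ratio of 9.02, 6.22 and 4.22 between the strains' changes. Their unadjusted p were 0.00217, 0.000198 and 0.00161, and the limma adjusted p was 0.391 for each.

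In control muscle these values followed on opposite ones a step earlier. The arrays of both neighbouring steps share mice with this step, so their values are not independent of it. From 6 to 8 weeks Csrp3 was at 1.69 and 1.43 in control muscle, Myoz2 at 1.24 and 1.16 and Ankrd2 at 1.07 and 0.86. From 10 to 12 weeks the control values were above 0 once more, at 1.56 and 0.34 for Csrp3, 1.71 and 1.13 for Myoz2 and 1.20 and 0.46 for Ankrd2. In control muscle the 8-week mice were thus above, and the 10-week mice below, both mice compared with them. In mdx muscle the 6 to 8 week values of the 2 animals had opposite signs, at 0.75 and -1.26 for Csrp3 and 0.92 and -0.80 for Myoz2.

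Since these 3 genes were above 0 on both mdx and below 0 on both control arrays, the 200 bases before their transcription starts are shown (RefSeq, GRCm38.p6). They lie at chr7:48848052-48848251 on the minus strand for Csrp3, the first of 2 starts, at chr3:123034988-123035187 on the minus strand for Myoz2 and at chr19:42035827-42036026 on the plus strand for Ankrd2. Capitals mark the letters CANNTG, the E-box read by MyoD and its relatives, and CTANNNNTAG. The latter, with N for any base, is only a loose pattern for the core read by MEF2 factors. Both read the same on the other strand, and no matches overlap.
Csrp3: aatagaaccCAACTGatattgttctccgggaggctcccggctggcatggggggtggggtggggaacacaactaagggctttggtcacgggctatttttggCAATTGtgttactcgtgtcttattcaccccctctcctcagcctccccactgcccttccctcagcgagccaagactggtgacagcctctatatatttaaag
Myoz2: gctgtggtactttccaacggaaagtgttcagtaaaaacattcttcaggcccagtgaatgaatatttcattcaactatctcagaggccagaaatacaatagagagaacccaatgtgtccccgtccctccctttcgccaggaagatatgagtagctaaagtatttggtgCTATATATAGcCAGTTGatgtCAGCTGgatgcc
Ankrd2: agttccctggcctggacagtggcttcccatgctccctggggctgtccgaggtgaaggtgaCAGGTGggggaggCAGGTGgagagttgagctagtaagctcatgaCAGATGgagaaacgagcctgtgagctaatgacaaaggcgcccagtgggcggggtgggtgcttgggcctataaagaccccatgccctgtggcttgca

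The E-box letters occurred at 2 places before Csrp3, 2 before Myoz2 and 3 before Ankrd2. They were present in 58.2% of 32851 promoter windows of this length. The letters CTANNNNTAG occurred once, before Myoz2, and in 2.49% of all windows. These are counts of the letters and not of MEF2 sites.

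Of the whole slow-fibre list of 10 probes, 6 were below 0 on both control arrays and 0 above, and 4 had an unadjusted p under 0.05, all lower in control. All probes gave 22.5% and 0.933%. The medians were -0.09 and -0.67 in control and -0.17 and 0.06 in mdx muscle. Besides Csrp3 and Myoz2 the 4 were Casq2 and Tnnt1. Casq2, the calsequestrin of slow and cardiac muscle, was at -1.40 and -1.01 in control muscle, with a fitted value of -1.21 ± 0.27 (3.35-fold lower, adjusted p = 0.37). In mdx muscle it was at -1.15 and 0.04, so that the strains overlapped. Tnnt1, the slow troponin T, was at -0.65 and -1.96 in control and at -1.20 and 1.48 in mdx muscle, where the animals disagreed. Tnni1 and Tnnc1, the slow troponins I and C, lay on both sides of 0 in control muscle, at 0.24 and -0.28 and at 0.26 and -0.22. The control medians of the list were 0.55 and 0.68 from 6 to 8 weeks and 0.44 and 0.61 from 10 to 12 weeks. Those arrays share mice with this step. Of 30 probes of fast fibres and glycolysis, 2 were below 0 and 5 above on both control arrays, both under the 22.5% and 27.6% of all probes, with medians of 0.23 and -0.08. The share of slow muscles in each dissected sample was not tested.

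**Figure D5:**
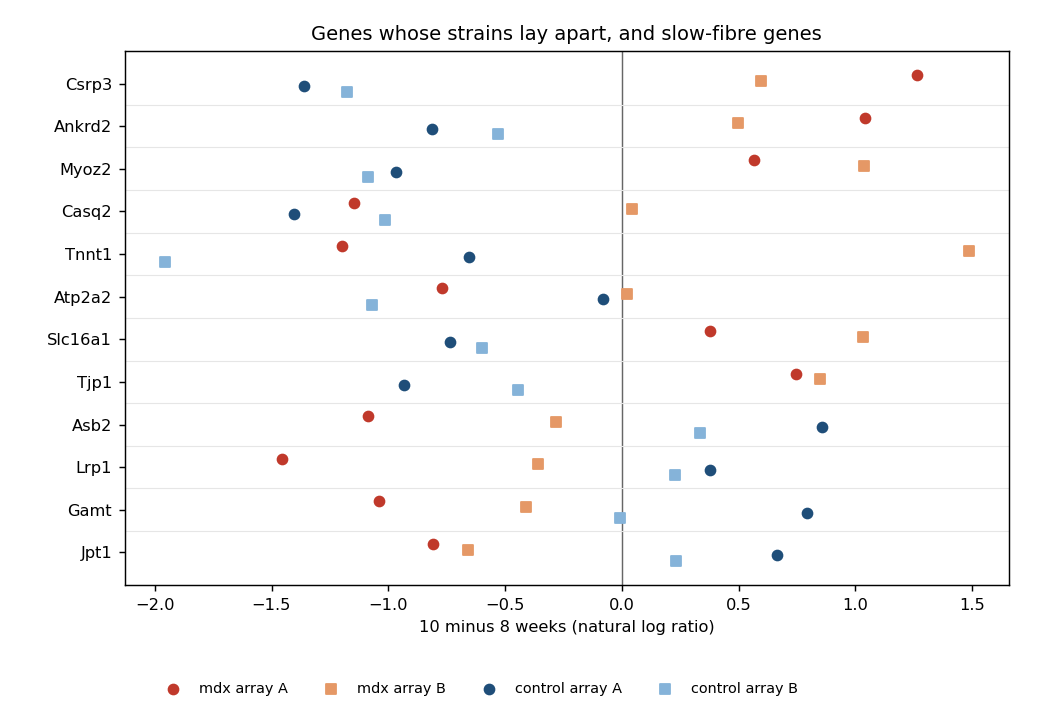
Slow-fibre genes and genes for which both mdx arrays lay on one side of both control arrays. The horizontal axis is the natural log ratio of 10 over 8 weeks, with the mdx arrays in red and orange and the control arrays in dark and light blue. Csrp3, Ankrd2, Myoz2, Slc16a1 and Tjp1 lie right of 0 in mdx and left of 0 in control muscle, while Casq2 and Tnnt1 overlap.

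The gene with the smallest p of the difference was Slc16a1, the lactate and pyruvate transporter MCT1. It was at 0.38 and 1.03 in mdx and -0.74 and -0.60 in control muscle, a difference of 1.37 ± 0.28 (3.95-fold, unadjusted p = 4.07e-05, adjusted p = 0.275). Tjp1, a scaffold of tight junctions, was at 0.75 and 0.85 in mdx and -0.93 and -0.45 in control muscle. In the other direction Asb2, a ubiquitin ligase subunit of muscle, was at -1.09 and -0.28 in mdx and 0.86 and 0.33 in control muscle, a difference of -1.28 ± 0.31. Lrp1, an endocytic receptor of fibroblasts and macrophages, was at -1.45 and -0.36 in mdx and 0.38 and 0.23 in control muscle. Gamt, which makes creatine, was at -1.04 and -0.41 in mdx and 0.79 and -0.01 in control muscle. Jpt1 (-0.81 and -0.66 against 0.66 and 0.23) and Impdh1, an enzyme of guanine nucleotide synthesis (-0.57 and -0.56 against 0.42 and 0.11), had mdx arrays close to each other.

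Of 35 probes of oxidative phosphorylation and the TCA cycle, 17 were below 0 on both mdx arrays and 19 on both control arrays, against 36.1% and 22.5% of all probes. Cox7a1, the muscle form of a cytochrome oxidase subunit, was at -1.06 and -0.47 in mdx and -0.14 and 0.17 in control muscle. Cox5b (-0.38 and -0.44) and Cox4i1 (-0.41 and -0.36), subunits of the same enzyme, were lower on both mdx arrays with close values. Of 19 probes of fatty acid oxidation, 11 were above 0 on both mdx arrays and 10 below 0 on both control arrays, against 21.8% and 22.5% of all probes. For 11 of 19 both mdx arrays lay over both control arrays, against 14.6% of all probes. At an unadjusted p under 0.05, 3 were higher and 1 lower in mdx, where all probes gave 2.65% and 7.52%. The lower one was Fabp3, at -0.88 and -0.22. Lpl, the lipase that frees fatty acids from lipoproteins, was at 1.15 and 0.53 in mdx and -0.18 and -0.02 in control muscle. Cd36, a fatty acid transporter, was at 0.54 and 0.52 in mdx and -0.09 and -0.36 in control muscle. Ppara, the receptor that switches on fatty acid oxidation, was at 0.57 and 0.54 in mdx and -0.19 and 0.09 in control muscle.

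Adipocytes also express Lpl and Cd36, and the adipocyte list was uneven. Of 16 probes, 8 were above 0 on both mdx arrays and 3 below, against 21.8% and 36.1% of all probes, with medians of 0.45 and 0.08. Fabp4, the fatty acid binding protein of adipocytes, was at 1.30 and 0.33 in mdx and 0.08 and just over 0 in control muscle, and Adipoq, adiponectin, at 0.66 and 0.07 in mdx muscle. Lep, leptin, was lower in mdx (-0.34 and -0.56) and higher in control muscle (0.34 and 0.20). The part of fat in the dissected samples was not tested.

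Among genes higher on both mdx arrays, those with the smallest p were Myc, Me1, Bnip3 and Pcx. Myc, a transcription factor of growth, was at 2.21 and 0.54 in mdx and 0.17 and 0.01 in control muscle. Its mdx value of 1.38 ± 0.31 was 3.96-fold (adjusted p = 0.283), and the control arrays stayed near 0. Pcx, pyruvate carboxylase, was at 2.03 and 0.57 in mdx and 0.65 and -0.43 in control muscle. Me1, malic enzyme, was at 1.54 and 0.74 in mdx and 0.50 and -0.88 in control muscle. Bnip3, a factor of mitophagy, was at 1.03 and 0.43 in mdx muscle. For these genes mdx array A carried the larger value, and from 6 to 8 weeks the same probes had been below 0 on both mdx arrays. Those earlier values were -0.95 and -0.64 for Myc, -1.94 and -0.69 for Pcx, -1.75 and -0.40 for Me1 and -0.85 and -0.27 for Bnip3. The same 8-week mdx mice stood on the arrays of both steps. A low value in those mice moves the steps in opposite directions, so the earlier values are not a separate observation.

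Of 39 probes of ribosomal proteins, 30 were below 0 and 4 above on both mdx arrays, against 36.1% and 21.8% of all probes. On both control arrays 1 was below and 16 above, against 22.5% and 27.6%. The medians were -0.19 and -0.18 in mdx and 0.28 and -0.02 in control muscle. At an unadjusted p under 0.05 there were 0 in mdx and 1 in control muscle, against 10.2% and 3.3% of all probes. Rpl41 was at -0.40 and -0.54 in mdx and 0.45 and 0.25 in control muscle, and Rps16 at -0.19 and -0.19 in mdx muscle. Of 29 probes of atrophy, ubiquitin and the proteasome, 15 were above 0 on both mdx arrays and 15 on both control arrays, against 21.8% and 27.6% of all probes. Psmc5 (0.58 and 0.86) and Psmc2 (1.01 and 0.87), ATPases of the proteasome, were the members with the smallest p after Bnip3 in mdx muscle. Of 16 probes of clock genes, 6 were above 0 on both mdx arrays and 8 on both control arrays, against 21.8% and 27.6% of all probes. Among the 6 was Rora, a nuclear receptor of the clock, at 0.99 and 0.83 in mdx and 0.62 and -0.09 in control muscle.

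Among genes higher on both control arrays, Gaa and Cd2ap had the smallest p and rested mainly on control array B. Gaa, the lysosomal enzyme that degrades glycogen, was at 0.26 and 1.42 in control and -0.12 and 0.06 in mdx muscle. Cd2ap, an adaptor of the actin skeleton, was at 0.17 and 1.85 in control muscle. Pdgfa, a growth factor for fibroblasts, was at 0.92 and 0.38 in control and -0.46 and -0.09 in mdx muscle. Stxbp4, a syntaxin binding protein, was the more even gene, at 0.58 and 0.65. Among the lower ones Atp1b1, the sodium pump subunit, was at -1.30 and -0.47 in control and -0.34 and -0.03 in mdx muscle. Sox7, an endothelial transcription factor, was at -0.61 and -0.51 in control and -0.08 and -0.04 in mdx muscle. Of 14 endothelial probes, 8 were below 0 on both control arrays and 7 on both mdx arrays, against 22.5% and 36.1% of all probes, and the medians were -0.21 and -0.09 in control and -0.06 and -0.16 in mdx muscle.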

How the data were processed

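Per the labels, hindlimb muscle RNA was hybridised to 36 two-colour arrays, 18 per strain, in a loop over 9 ages with 2 animals per age and strain. The authors subtracted the local background, applied variance stabilisation (VSN) over all arrays and deposited natural log ratios of channel 1 over channel 2. VSN narrows ratios of dim spots. Along the loop, whose last arrays join 20 to 1 weeks, channel 1 held the next age in mdx and the previous one in control muscle. The ratios were turned to next minus previous age. The labels state neither this direction nor the log base, and both were checked with levels that the study gives. The 15552 spots gave 7776 positions, and duplicate spots were averaged over 6754 named probes.

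The fit (limma 3.58.1, R 4.3.3) used all arrays, with age within strain, 1 dye term per strain and correlated errors between arrays of a shared mouse (variance ratio 0.27). The residual degrees of freedom were 18 and those of the prior 7.33. Arrays from 6 to 8 and 10 to 12 weeks share mice with this step. Few arrays cover this step, so its values are imprecise. The p-values rest on the residual spread of all arrays together with the prior. That spread mixes array error with differences between mice of every age. It is not the spread between the mice of this step alone. The threshold was an adjusted p of 0.05. The script was tested on simulated data.

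Up to 12 probes per test and direction were named by the smallest p, of at least 0.5 in size and with arrays of 1 direction, with up to 4 members per list and the pathway genes that the study names. Named after their values were seen, as markers or examples, were Lgals3, Col1a1, Mki67, Tnni1, Tnnc1, Adipoq, Rps16, S100a8 and S100a9, and Serpinf1 came from a limit of 0.3 on all 4 arrays. The members and lists were chosen with earlier results of these data known. Letters A and B name individuals and do not pair them.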

Additional observations from a re-analysis of the deposited data

How the results depend on the processing

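The number of probes passing in mdx muscle was 26 with arrays scaled to equal spread, 9 with the first spot alone, and 0 to 163 when single replicates were left out. In control muscle it was 1 with arrays scaled to equal spread and 0 to 32 with single replicates left out. For the mean of both strains it was 0 to 56 with single replicates left out. For the difference it was 1 with arrays scaled to equal spread and 0 to 91 with single replicates left out. A fit with a single replicate left out kept only 1 array of the step in the strain of that replicate. Counts that rest on that strain were thus obtained without a replicate and are not taken as calls. Shared probes past 0.5 on all 4 arrays numbered 2 without the dye term, 1 with arrays scaled to equal spread, 1 with the second spot alone and 5 at a limit of 0.3. The methods' t-test on the difference passed 0 probes with Bonferroni and 0 with Benjamini-Hochberg adjustment. A replicate block with a term for the letter over all arrays gave 0 in each comparison. The letters name individuals, and their deviations in the 2 strains correlated with r = -0.118. On the 4 arrays alone, a replicate block passed 11 probes for the difference and the crossed pairing 98. This and the alternatives for list medians were chosen after seeing the data. The myeloid median in mdx muscle, -0.29, was 0.056 without the mdx animals A and -0.85 without the mdx animals B. The matrix median of -0.30 ranged from -0.50 to -0.11, and the slow-fibre median of -0.39 in control muscle from -0.63 to -0.12. Cluster 1, at -0.21, was at -0.16 with arrays centred on their medians and ranged from -0.28 to -0.18 without single replicates, and cluster 2, at -0.29, from -0.34 to -0.24. Of 1616 alternative values for 101 values of named genes, 13 changed sign and some came to pass the threshold. For a change within 1 strain, another error model or leaving out mice of the other strain returned the same fitted value. Many of these alternatives thus could not change sign. Without the mdx animals A and B in turn, mdx values were 0.014 and -1.58 for C1qc, 0.75 and -1.84 for Col1a1, 0.44 and -2.46 for Lgals3, 0.18 and -0.35 for Myod1, and 0.054 and -1.04 for the Ncam1 probe X15052. In control muscle Tnnc1 was at -0.070 with equal spread, -0.0002 with centred arrays, and -0.19 and 0.23 without the control animals A and B. Tnni1 was at 0.019 with equal spread, 0.15 with the first spot alone, and -0.29 and 0.25 without the control animals A and B. The difference of Fabp3 ranged from -0.37 to 0.42 when single replicates were left out. The cause was not tested.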
